A study of Mus musculus with 5 samples.

Results

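Pck1, Fbp1, G6pc and Khk, 3 enzymes of glucose synthesis and the enzyme that starts fructose breakdown, were followed across the cells of the mouse kidney. The genes were taken by symbol from the deposited tables of all 5 libraries, and all 4 were listed, of 16934 genes listed in all. Kidneys of wild-type mice, with the strain labelled C56BL/6N, were profiled by Drop-seq, which captures single cells in droplets and tags every mRNA molecule with a unique molecular identifier (UMI). All groups share this genotype and differ by the tissue put in: the cortex, the outer medulla and the inner medulla were dissected and gave 1 library each, and 2 libraries were made of whole kidney. Per the labels, tissue was dissociated in the cold with a bacterial protease, and cells were fixed in methanol and frozen before capture. Age, sex and feeding state are not given in the labels used here, nor is the number of animals, so spread between libraries may be technical. Barcodes with at least 200 detected genes were read as cells, and 12099 remained after removal of marked doublets.

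Gluconeogenesis makes glucose from lactate, glutamine and glycerol, and apart from liver the kidney is the main organ that carries it out. Phosphoenolpyruvate carboxykinase, made from Pck1, turns oxaloacetate into phosphoenolpyruvate. Fructose bisphosphatase, made from Fbp1, removes a phosphate from fructose bisphosphate, and glucose-6-phosphatase, made from G6pc, frees glucose for export. Ketohexokinase, made from Khk, phosphorylates fructose, which is then split into intermediates shared with glucose synthesis. The proximal tubule, the first stretch of the nephron after the glomerulus, is divided into the segments S1, S2 and S3, from the cortex toward the outer medulla.

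The promoters are shown because the 4 genes had one pattern in common, a high level in proximal tubule cells, and parted within it. The 250 bases before each start come from the RefSeq table of GRCm38.p6, which held all 4 genes, on the gene's own strand, 5′ to 3′. They lie at chr2:173152823-173153072 on the plus strand for Pck1, chr13:62888283-62888532 on the minus strand for Fbp1, chr11:101367466-101367715 on the plus strand for G6pc and chr5:30921309-30921558 on the plus strand for Khk. Capitals mark matches, on either strand, to TATAAA (the TATA box), CGTCA (part of the cAMP response element), GTTAAT (part of the HNF1 motif), CAAAGTCCA (an HNF4 motif) and CACGTG (the E-box).
Pck1: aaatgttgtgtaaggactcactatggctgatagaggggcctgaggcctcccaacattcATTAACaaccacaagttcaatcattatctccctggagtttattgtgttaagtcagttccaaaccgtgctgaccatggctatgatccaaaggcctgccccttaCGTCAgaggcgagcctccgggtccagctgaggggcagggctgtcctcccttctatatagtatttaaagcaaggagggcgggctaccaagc
Fbp1: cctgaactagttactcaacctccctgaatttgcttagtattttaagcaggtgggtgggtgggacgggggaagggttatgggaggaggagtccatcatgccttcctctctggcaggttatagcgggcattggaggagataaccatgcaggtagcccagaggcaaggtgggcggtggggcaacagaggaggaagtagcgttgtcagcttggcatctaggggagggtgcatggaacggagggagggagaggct
G6pc: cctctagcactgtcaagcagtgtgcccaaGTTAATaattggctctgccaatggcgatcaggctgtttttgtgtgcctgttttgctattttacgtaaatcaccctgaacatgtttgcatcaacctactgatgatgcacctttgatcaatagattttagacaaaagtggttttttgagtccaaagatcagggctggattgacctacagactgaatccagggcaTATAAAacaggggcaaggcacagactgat
Khk: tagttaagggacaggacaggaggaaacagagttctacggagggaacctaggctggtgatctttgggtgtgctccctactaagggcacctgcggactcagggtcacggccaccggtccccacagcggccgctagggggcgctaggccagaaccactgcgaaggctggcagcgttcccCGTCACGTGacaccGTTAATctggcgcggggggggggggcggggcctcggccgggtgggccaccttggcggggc

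Pck1 held CGTCA starting 90 bases before the start and GTTAAT on the other strand starting 192 bases before it. G6pc held TATAAA starting 29 bases before the start and GTTAAT starting 221 bases before it. Khk held CGTCA starting 74 bases before the start, the E-box overlapping it from base 71, and GTTAAT starting 60 bases before the start. No match lay in the window of Fbp1, and none of the 4 windows held CAAAGTCCA. Of 32851 RefSeq promoters of the same length, 12.4% held TATAAA, 17.8% CGTCA, 6.43% GTTAAT, 0.38% CAAAGTCCA and 6.02% CACGTG, so the matches are a description of these windows and nothing more.

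The tables held 4035 to 15051 barcodes and 869732 to 4169677 UMIs per library, and each cell carried a median of 440 to 516.5 UMIs. Cells were grouped without the 4 genes and without the related genes listed below, so that the groups do not rest on them. Of the 12099 cells, 8308 were proximal tubule-like by their markers, and these made up 73.5% of the cortical cells, 10.1% of those from inner medulla and 62.6% of those from outer medulla, and 75.3% and 79.7% in whole kidneys 1 and 2. Among them, 4056 were S1-like and 3232 S3-like, and 1020 could not be named. Pairs of libraries shared 0 or 1 cell barcodes.

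All 4 genes were measured mainly in proximal tubule-like cells. In the order cortex, outer medulla, inner medulla, then whole kidneys 1 and 2, Pck1 was at 721, 512, 517, 493 and 470 UMIs per 1000000 UMIs of the summed proximal cells (CPM). Levels are compared for 1 gene at a time. The other tubule-like cells (thin limb, thick ascending limb, distal convoluted tubule, connecting tubule, principal and intercalated cells) held 101, 84.0, 4.51, 71.5 and 112 CPM of Pck1 in the same order of libraries. The lowest proximal value stood above the highest of the other tubule cells.

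Fbp1 was at 1366, 1420, 812, 1576 and 1567 CPM in proximal sums, in that order, and at 235, 242, 4.51, 320 and 349 CPM in the other tubule cells. G6pc was at 383, 290, 351, 331 and 216 CPM against 69.7, 80.8, 15.8, 45.1 and 41.4 CPM. Khk was at 1082, 1121, 1255, 941 and 1098 CPM against 183, 210, 20.3, 188 and 216 CPM. The groups did not overlap for any of the 4 genes, but the share of all genes without overlap was not counted. The inner medulla, which had 90 proximal tubule-like cells, was the lowest library for each gene in the other tubule cells.

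Summed per library and fitted with edgeR's quasi-likelihood test with the library as a block (n = 5 libraries, Benjamini-Hochberg adjustment over 5197 genes), each of the 4 genes was higher in proximal tubule-like cells. Of all genes tested, 48.6% were called at an adjusted p below 0.05, 23.6% higher and 25% lower. Pck1 was higher by 3.09 on the log2 scale (SE 0.33, edgeR adjusted p = 7.84e-06), Khk by 3.06 (SE 0.37, adjusted p = 2.18e-05), Fbp1 by 3.005 (SE 0.41, adjusted p = 5.83e-05) and G6pc by 2.78 (SE 0.23, adjusted p = 1.2e-06). The direction held in 5 of 5 libraries for each.

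The size of this difference is less firm than its direction. In the plain ratio of CPM, Fbp1 was 4.50 to 5.86 times higher in the 4 libraries other than inner medulla and 180 times higher in inner medulla, where the other tubule cells held 2 UMIs of it. With cells named by their own marker score instead of their cluster, the edgeR differences were 1.20 for Pck1, 1.26 for Fbp1, 1.04 for G6pc and 1.505 for Khk on the log2 scale. They were 1.85 to 2.78 over the 4 genes with only cells of at least 500 genes, 3.66 to 4.17 without the 5% highest doublet scores, and 2.64 to 2.85 without inner medulla. With free RNA subtracted they were 9.58, 9.45, 4.58 and 6.69, a subtraction that takes most of their UMIs outside the proximal tubule.

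**Figure D1:**
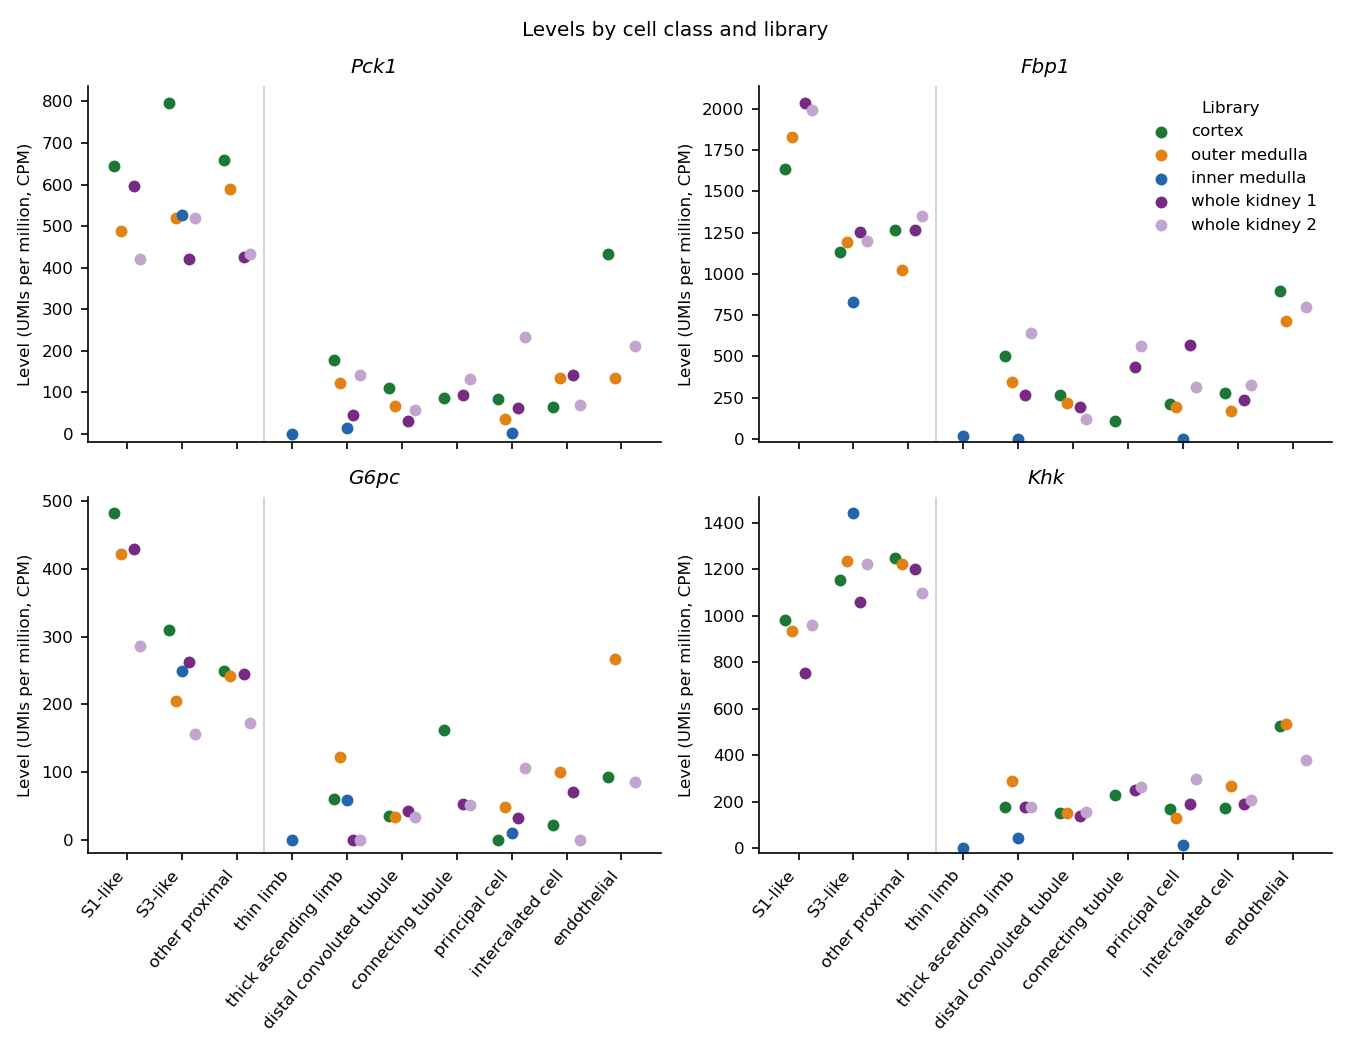
Level of each gene (vertical axis, CPM, linear from 0) in each cell class (horizontal axis). Each point is 1 library's sum with at least 30 cells and 20000 UMIs, coloured by library. For Pck1, Fbp1 and Khk the proximal groups at the left of the grey line stand above the tubule classes at its right. Endothelial cells lie between them for Khk. The highest endothelial sum of Fbp1 (898 CPM) passes the lowest S3-like sum (830 CPM). That of Pck1 (434 CPM) passes the lowest S1-like (420 CPM) and S3-like (422 CPM) sums. For G6pc the highest connecting tubule-like sum (163 CPM, cortex) and the highest endothelial sum (268 CPM) pass the lowest S3-like sum (156 CPM, whole kidney 2).

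Free RNA, released from broken cells into the suspension, puts UMIs of abundant proximal genes into all droplets, and the levels outside the proximal tubule were set against it. The proximal tubule markers made up 1.07% of the UMIs of other tubule-like cells in cortex. In barcodes with under 100 genes they made up 5.38%. The ratio puts free RNA at 19.8% of the UMIs of those tubule-like cells if all their marker UMIs came from it. Marker UMIs from doublets with proximal cells count in this share too. The same share was 4.82% for inner medulla, and between 21.97% and 24.2% for the other three libraries. The low levels of all 4 genes in the inner medulla's other tubule cells thus came with the lowest such share.

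From the markers' UMIs and the ratio of each gene to the markers in barcodes with under 100 genes, 147 UMIs of Pck1 were expected in the other tubule-like cells of the 5 libraries, and 124 were observed, a ratio of 0.85 (95% Poisson interval 0.70 to 1.01). The ratio was 0.96 for Fbp1 (0.87 to 1.07), with 371 UMIs observed and 386 expected. It was 1.06 for Khk (0.94 to 1.20), with 268 observed and 253 expected. These intervals hold 1, so expression of Pck1, Fbp1 and Khk outside the proximal tubule was not detectable over the expected number in the pooled sums at this depth. That number does not separate free RNA from doublets with proximal cells. Without the 5% highest doublet scores it was 61.85 for Pck1, 168.7 for Fbp1 and 108.8 for Khk. How much of the main expectation came from doublets was not tested. The interval left 1 under some alternatives: Fbp1 was at 1.12 (1.07 to 1.17) and Khk at 1.08 (1.02 to 1.14) with cells named by their own marker score, and Khk at 1.33 (1.12 to 1.57) without the 5% highest doublet scores. Pck1 lay below 1, at 0.83 (0.69 to 0.99), without 1 cortical barcode that is described next.

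G6pc was at 85 UMIs where 60.6 were expected, a ratio of 1.402 (1.12 to 1.73). In connecting tubule-like cells of cortex 19 UMIs were observed and 4.96 expected, a ratio of 3.83 (2.31 to 5.98). These 19 UMIs lay in 7 cells, and 9 of them in 1 barcode of 3935 UMIs. Without that barcode, singled out after its value was seen, 10 UMIs stood against 4.45, a ratio of 2.25 (1.08 to 4.13), and the pooled ratio was 1.26 with an interval (0.996 to 1.58) that holds 1. Thick ascending limb-like cells of outer medulla held 13 UMIs of G6pc where 5.80 were expected (ratio 2.24, 1.19 to 3.83), and those of inner medulla held 4 where 0.31 were expected, the highest ratio of a class (12.97, 3.53 to 33.2), on few UMIs. With the 5% highest doublet scores removed the pooled ratio was 1.12 (0.75 to 1.61). It was 1.46 (1.32 to 1.61) with cells named by their own marker score and 1.449 (1.16 to 1.79) with free RNA read from barcodes with under 75 genes. The interval of the pooled G6pc ratio thus lay above 1 in the main grouping and under these last alternatives, and held 1 without the single barcode and without the highest doublet scores.

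Over the 25 sums of single classes outside the proximal tubule, the interval of the ratio lay above 1 in 0 sums for Pck1, 2 for Fbp1, 3 for G6pc and 3 for Khk, and below 1 in 3 sums for Fbp1 alone. The median ratio was 0.78 for Pck1, 0.95 for Fbp1, 1.18 for G6pc and 0.95 for Khk. In thin limb-like cells of inner medulla, 48229 UMIs held 1 UMI of Fbp1 and 0 of the other three, and 0 counts allow a level of up to 62.2 CPM. Endothelial-like cells had the highest levels outside the proximal tubule, 714 to 898 CPM of Fbp1 and 380 to 535 of Khk in 3 libraries, and there too the interval of the ratio held 1 for each gene.

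**Figure D2:**
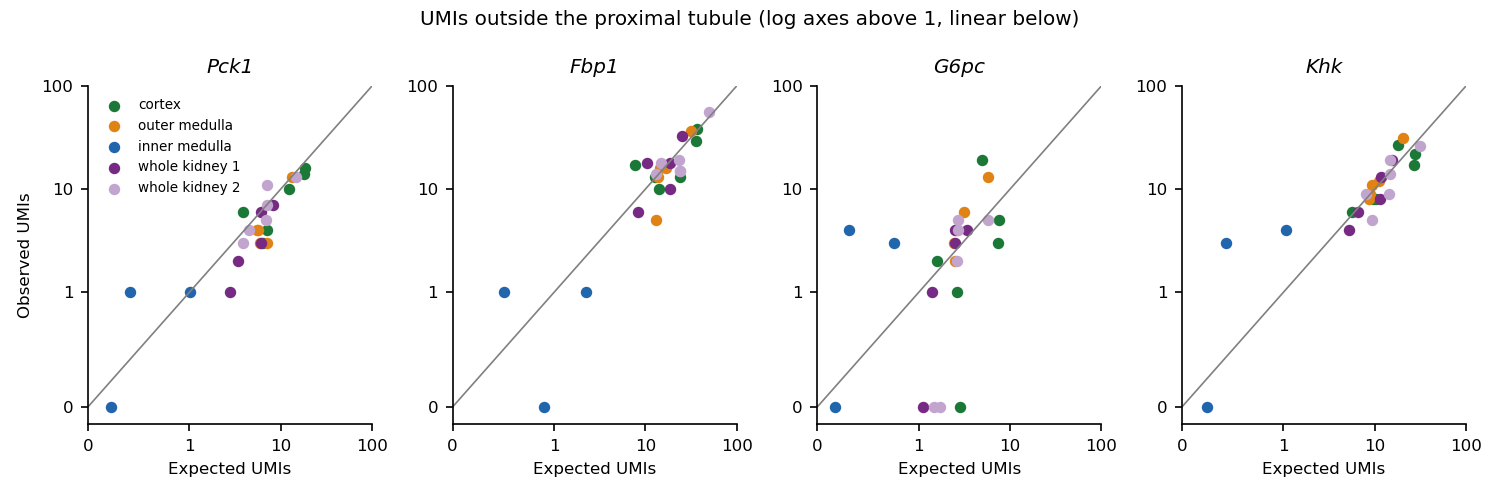
UMIs of each gene observed (vertical axis) and expected from free RNA (horizontal axis) in the 25 sums of cell classes outside the proximal tubule, coloured by library; axes are logarithmic above 1 and linear below, and the grey line marks equal numbers. Most points lie along the line, and G6pc in the connecting tubule-like cells of cortex (19 observed, 4.96 expected) stands farthest above it among sums with over 1 UMI expected.

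Within the proximal tubule the 4 genes parted. Fbp1 and G6pc were lower, and Khk higher, in S3-like than in S1-like cells of every library that held enough of both, and Pck1 had no direction shared by all of them. S1-like cells were those of sub-clusters with high levels of the S1 markers such as Slc5a2, the glucose carrier of the early tubule, and S3-like those with high levels of S3 markers such as Slc7a13. In S3-like cells 6 of the 8 S2 markers also stood higher than in S1-like cells, among them Slc22a6 at 909 against 232 CPM, so that the S3-like group spans the later proximal tubule and is not S3 alone. Kap, the kidney androgen-regulated protein, took 7.68% to 10.6% of the UMIs of S3-like cells and 0.805% to 1.14% of those of S1-like cells, which lowers every other CPM there, and edgeR's TMM factors correct for this.

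Fbp1 was at 1638 CPM in S1-like cells of cortex, 1827 in outer medulla, and 2035 and 1995 in whole kidneys 1 and 2. In S3-like cells it was at 1134, 1191, 1255 and 1202 CPM in the same order, below every S1-like value. The edgeR difference was -0.53 on the log2 scale (SE 0.06, adjusted p = 6.88e-12, n = 4 libraries), in the same direction in 4 of 4 libraries. In this contrast 37.9% of the 6670 genes tested were called, 18.9% higher and 19% lower in S3-like cells, so that a call by itself is common.

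G6pc, the last enzyme of the route, was at 483, 422, 430 and 287 CPM in S1-like cells and at 310, 205, 262 and 156 CPM in S3-like cells. Whole kidney 2 was the lowest library in both segments, and its S1-like value lay below the S3-like value of cortex, so the groups overlapped across libraries but not within any. The edgeR difference was -0.68 (SE 0.08, adjusted p = 4.45e-10, lower in 4 of 4 libraries).

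Khk rose instead. It was at 983, 935, 755 and 960 CPM in S1-like cells and at 1151, 1236, 1060 and 1222 CPM in S3-like cells of cortex, outer medulla, whole kidney 1 and whole kidney 2. Every S3-like value stood above every S1-like value. For how many of all genes the segments lie apart in this way, as for Khk and Fbp1, was not counted. The edgeR difference was 0.48 (SE 0.06, adjusted p = 1.1e-09, higher in 4 of 4 libraries).

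Pck1 was at 644, 487, 596 and 420 CPM in S1-like cells and at 797, 519, 422 and 519 CPM in S3-like cells. It was higher in S3-like cells of cortex (ratio of CPM 1.24, 95% interval 1.11 to 1.38) and whole kidney 2 (1.24), near equal in outer medulla (1.06, 0.90 to 1.26) and lower in whole kidney 1 (0.71). The edgeR estimate of 0.20 (SE 0.08, adjusted p = 0.0467) passed the threshold narrowly. It lost the call without cortex (0.10, edgeR adjusted p = 0.445), without outer medulla (0.20, adjusted p = 0.14) and without whole kidney 2 (0.09, adjusted p = 0.45), and was 0.38 (adjusted p = 1.44e-05) without whole kidney 1. With DESeq2 the adjusted p was 0.39, so no difference of Pck1 between the segments holds beyond the spread between libraries.

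**Figure D3:**
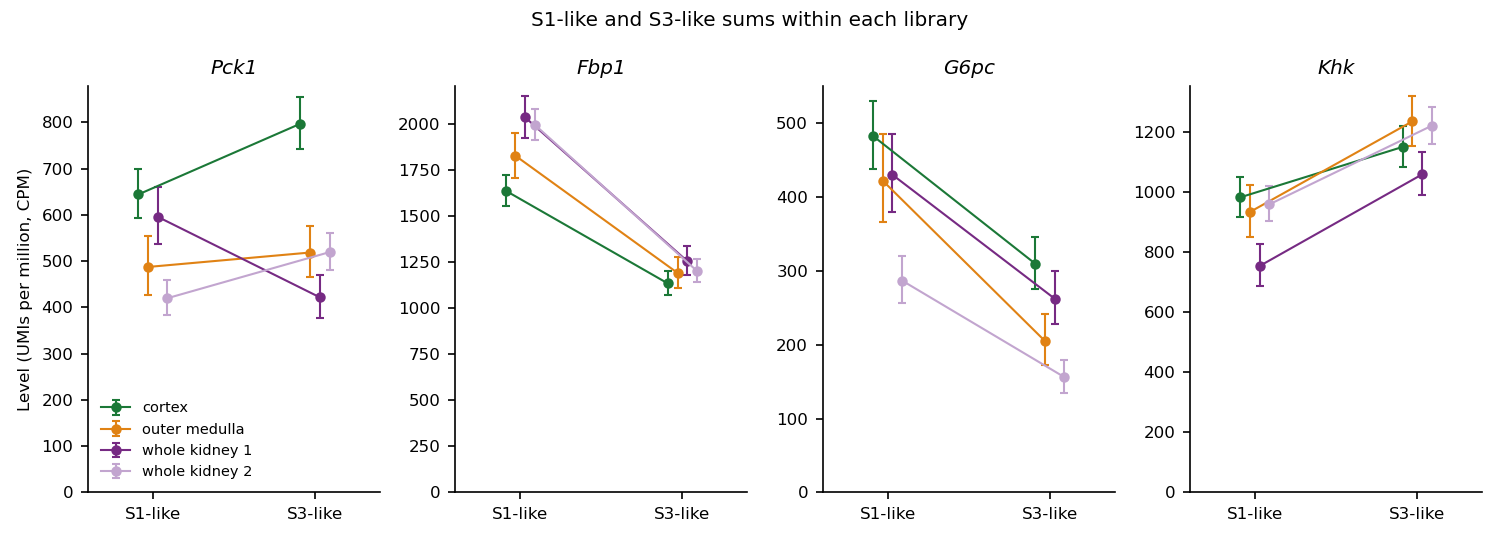
Level of each gene (vertical axis, CPM, linear from 0) in S1-like and S3-like sums, with 1 line per library and exact 95% Poisson intervals that cover counting error only. The lines of Fbp1 and G6pc fall and those of Khk climb in all 4 libraries, while those of Pck1 cross.

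The share of cells with at least 1 UMI gave the same order for Fbp1, G6pc and Khk. With each cell thinned to 300 UMIs (490 S1-like and 211 S3-like cells were shallower and left out), Fbp1 was seen in 41.2% of S1-like cells (exact 95% interval 39.5 to 42.8) and 30.7% of S3-like cells (29.1 to 32.4). G6pc was seen in 10.6% and 7.08%, Khk in 24.1% and 28.3%, and Pck1 in 13.3% and 17.8%. In principal cell-like cells, which should lack the genes, the shares were 2.99% for Fbp1, 0.57% for G6pc, 1.99% for Khk and 1.00% for Pck1, with a median depth before thinning of 524 UMIs beside 577 in S1-like and 710 in S3-like cells. These shares are pooled, and inner medulla, which had few proximal cells, gave 413 of the 702 principal cell-like cells.

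Without thinning, the shares were 61.6% and 59.4% for Fbp1, 21.2% and 18.8% for G6pc, 41.6% and 55.0% for Khk, and 26.9% and 37.7% for Pck1 in S1-like and S3-like cells. Of thinned S1-like cells, 34.9% had none of the 4 genes, 44.4% had 1 and 17.7% had 2. Of thinned S3-like cells, 37.6% had none, 43.4% had 1 and 16.5% had 2. In principal cell-like cells 94.3% had none.

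A sub-cluster of 78 S3-like cells, led by Cyp7b1 and Slc22a19 and singled out after its values were seen, kept Khk and was nearly without G6pc. It held 133 UMIs of Khk, 74 of Fbp1, 32 of Pck1 and 3 of G6pc among 85420 UMIs. This puts Khk at 1557 CPM (1304 to 1845), Fbp1 at 866 (680 to 1088), Pck1 at 375 (256 to 529) and G6pc at 35.1 (7.24 to 103). In outer medulla, where the sub-cluster had 36 cells, 1 UMI of G6pc stood against 139 in the other S3-like cells (ratio 0.12, 0.003 to 0.70), and the ratio was 0.70 for Pck1 (0.38 to 1.20), 0.77 for Fbp1 (0.53 to 1.08) and 1.05 for Khk (0.77 to 1.41). Inner medulla and whole kidney 2 had 0 UMIs of G6pc in 18 and 11 such cells, whole kidney 1 had 2 in 10 cells, and cortex had 3 cells only. The S1 markers Slc5a12 and Slc7a8 were at 0 in these cells of outer medulla, where Cyp7b1 was at 1192 CPM. The fall of G6pc from S1-like to S3-like cells did not rest on them: without the sub-cluster it was -0.66 (edgeR adjusted p = 3.33e-09).

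No sub-cluster could be named S2-like, so S2 was not compared in the main grouping. Where cells were named by their own marker score, Fbp1 was lower in S2-like than S1-like cells by -0.48 on the log2 scale (edgeR adjusted p = 1.1e-10), G6pc by -0.65 (adjusted p = 6e-08), and Khk was higher by 0.31 (adjusted p = 7.05e-05). From S2-like to S3-like cells the changes were -0.11 for Fbp1 (adjusted p = 0.371), -0.31 for G6pc (adjusted p = 0.0918) and 0.12 for Khk (adjusted p = 0.278). None of these last 3 passed the threshold in edgeR. With only cells of at least 500 genes, the other grouping that gave S2-like cells, S2-like against S1-like cells had the same directions. From S2-like to S3-like cells Fbp1 changed by -0.29 (edgeR adjusted p = 0.0321), G6pc by -0.03 (adjusted p = 0.966) and Khk by -0.02 (adjusted p = 0.962). The S2-like sub-cluster there was named on a marker score of 0.121, with S1 next at 0.0. Both groupings called G6pc and Khk from S1-like to S2-like cells, and neither called them from S2-like to S3-like cells. Only for Fbp1 did the calls differ. A missing call does not make levels equal, so where along the later tubule the levels step is not settled.

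Other genes of the same routes were read from lists, 1 per role. Of 10 further gluconeogenesis enzymes and carriers tested between the segments, 8 were lower in S3-like cells, 0 were higher and 2 did not pass the edgeR test, with a median of -0.43 beside -0.015 over all genes tested. Fbp2, the muscle-type fructose bisphosphatase, fell from a range of 58.8 to 77.3 CPM in S1-like cells to 13.8 to 29.3 CPM in S3-like cells (-1.67, SE 0.20, adjusted p = 3.26e-10). Mdh2, the mitochondrial malate dehydrogenase, changed by -0.43 and Got1, the cytosolic aspartate aminotransferase, by -0.84.

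Of the 7 reversible steps that glucose synthesis shares with glycolysis, 5 were lower in S3-like cells and 0 higher, with a median of -0.41. Gapdh changed by -0.47 (edgeR adjusted p = 6.02e-06) and Aldoa by -0.41 (adjusted p = 2.13e-06). Of 10 genes of the one-way glycolysis steps, 0 were abundant enough to be tested in proximal cells.

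Among 5 genes of fructose and polyol handling other than Khk, 3 were lower in S3-like cells and 1 was higher. Slc2a2, the glucose and fructose carrier of the basolateral membrane, was at 212, 179, 253 and 236 CPM in S1-like cells and at 101, 103, 67.1 and 76.4 CPM in S3-like cells (-1.25, SE 0.12, edgeR adjusted p = 3.21e-13). Slc2a5, the fructose carrier of the apical membrane, changed by -1.05 (adjusted p = 5.12e-06), and Tkfc, the triokinase, which acts after Khk, by -0.28 (adjusted p = 0.0379). Glyctk, glycerate kinase, was higher by 0.42 (adjusted p = 0.00655), and 1 gene did not pass. Khk and Glyctk thus rose where Tkfc, Slc2a2 and Slc2a5 fell.

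Of 9 genes that supply substrate, 2 were higher and 5 lower in S3-like cells, with a median of -0.57. Ogdh (-0.94), Glud1, glutamate dehydrogenase (-0.75), and Glul, glutamine synthetase (-0.69), were lower, and each passed the test. Of 12 regulators, 7 were lower and 2 higher. Ppargc1a, a coactivator that raises gluconeogenic genes in liver, changed by -1.41 (adjusted p = 3.14e-09), Cebpb by 1.21 (adjusted p = 1.12e-06), Nr3c1, the glucocorticoid receptor, by -0.65 and Ppara by -0.65.

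**Figure D4:**
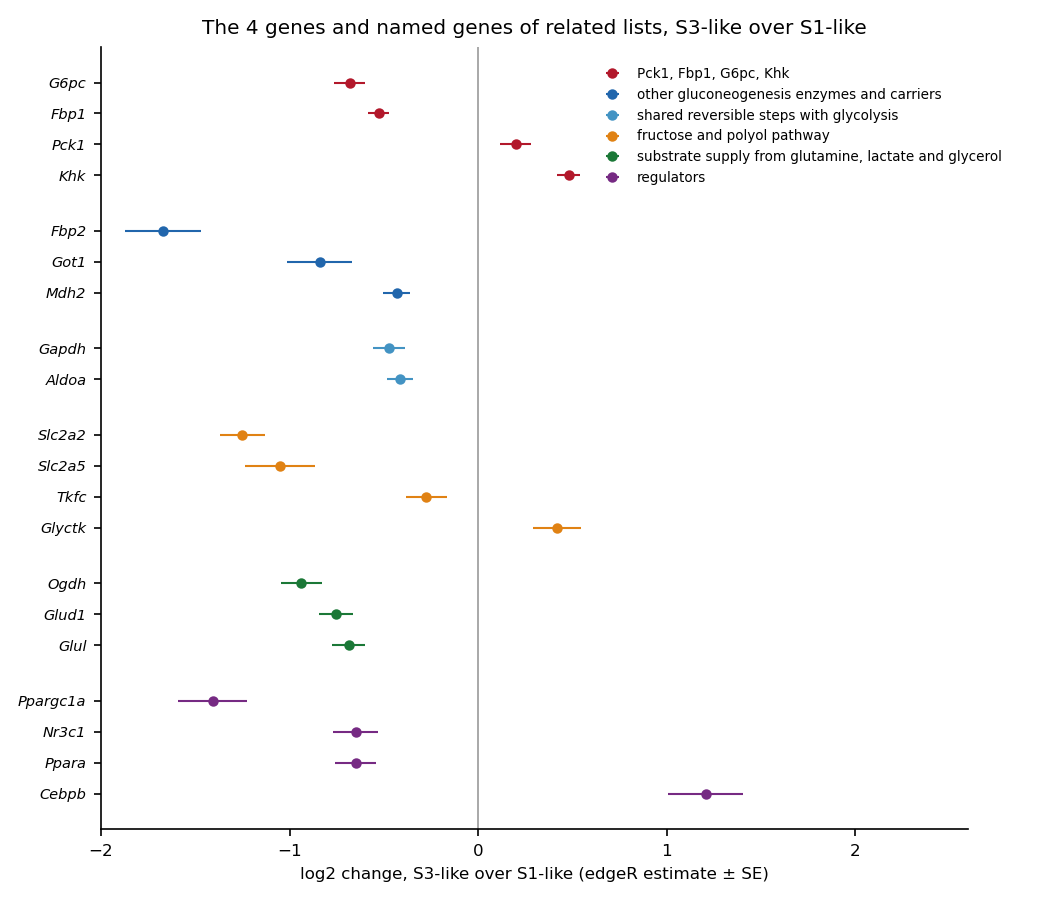
Change from S1-like to S3-like cells (horizontal axis, edgeR log2 estimate with its SE over 4 libraries) for the 4 genes and the genes of each list that the text names (vertical axis, coloured by list). All drawn genes passed an adjusted p below 0.05, list genes having been picked by their small adjusted p; most points lie left of 0, while Khk, Pck1, Glyctk and Cebpb lie right of it.

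The same lists were also read between proximal and other tubule-like cells, where 48.6% of all genes tested were called. The 5 fructose and polyol genes were all higher in proximal cells, with a median of 2.66 on the log2 scale beside -0.053 over all genes tested. Slc2a2 was higher by 3.22 and Tkfc by 2.46. Of 10 further gluconeogenesis genes 4 were higher, 1 was lower and 5 were not called, with a median of -0.075. Both the number called and the median were near those of all genes tested. Among the higher were Slc37a4, the carrier that feeds glucose-6-phosphatase, by 2.49 and Pcx, pyruvate carboxylase, by 1.86, and Got1 was lower by -1.26. Of 6 reversible steps 1 was higher and 4 lower. All of these were read from the edgeR fit over 5 libraries.

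Of 10 one-way glycolysis genes 3 could be tested, and these were lower in proximal cells. No gene of this list reached 20 CPM in the proximal sum of any library. The 3 thus passed the count filter through the other tubule cells, where they are high, and no other direction was open to them. Pkm, pyruvate kinase, was at 0 to 7.98 CPM in proximal sums of the 5 libraries and at 370 to 504 CPM in the other tubule cells. Hk1, hexokinase, was at 0 to 1.00 and 65.4 to 74.3 CPM. Pfkp changed by -4.10 (edgeR adjusted p = 7.51e-07). Of 8 substrate genes 5 were higher and 2 lower. Of 8 regulators 3 were higher (Hnf4a by 2.70, Ppara by 1.91, Nr3c1 by 1.23) and Ppargc1a was lower by -1.73. The other 4 regulators were not called, so their number called was near the share of all genes tested. Without TMM factors the median of all genes moved by -0.28 in this contrast and by -0.13 between the segments, and the share of calls that were higher fell from 48.5% to 31.2% and from 49.8% to 34.1%. None of the called genes named here turned its direction under it.

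Between regions there is 1 library each and no test. Pck1 was lower in outer medulla than in cortex in S1-like cells (ratio of CPM 0.76, 95% interval 0.65 to 0.88) and in S3-like cells (0.65, 0.57 to 0.74). G6pc was at 0.87 (0.74 to 1.04) in S1-like and 0.66 (0.54 to 0.81) in S3-like cells. Fbp1 was at 1.12 (1.02 to 1.21) and 1.05 (0.96 to 1.15), and Khk at 0.95 (0.85 to 1.07) and 1.07 (0.98 to 1.17). The direction of Fbp1 in S1-like cells turned with only cells of at least 500 genes (log2 ratio -0.0033), and that of G6pc in S3-like cells with cells named by their own marker score (0.003). These intervals cover counting error only.

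The whole kidney libraries, which are of the same kind, differed from each other too. The ratio of whole kidney 2 to whole kidney 1 was 0.70 in S1-like and 1.23 in S3-like cells for Pck1, and 0.67 and 0.59 for G6pc. For Khk it was 1.27 and 1.15, and for Fbp1 0.98 and 0.96. In S1-like cells the outer medulla's ratios of Pck1 and G6pc lay nearer to 1 than those of the whole kidney pair, as did that of G6pc in S3-like cells. For Pck1 in S3-like cells the whole kidney ratio pointed the other way, and over all proximal tubule-like cells Pck1 was at 0.71 (0.65 to 0.78) for outer medulla over cortex and at 0.95 (0.87 to 1.05) for the whole kidney pair. The ratio of Fbp1 in S1-like cells was also farther from 1 between the regions than between the whole kidneys. By a rule of size (a log2 ratio past 1 either way, with 100 CPM or more where the gene was higher), 0 of the 4 genes passed in either segment, beside 1.12% of 1783 genes in S1-like and 0.528% of 1705 genes in S3-like cells for outer medulla over cortex. For the whole kidney pair 0.604% and 0.229% of genes passed. Over all proximal tubule-like cells 0.458% passed for outer medulla over cortex and 0.336% for the whole kidney pair, again with 0 of the 4.

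**Figure D5:**
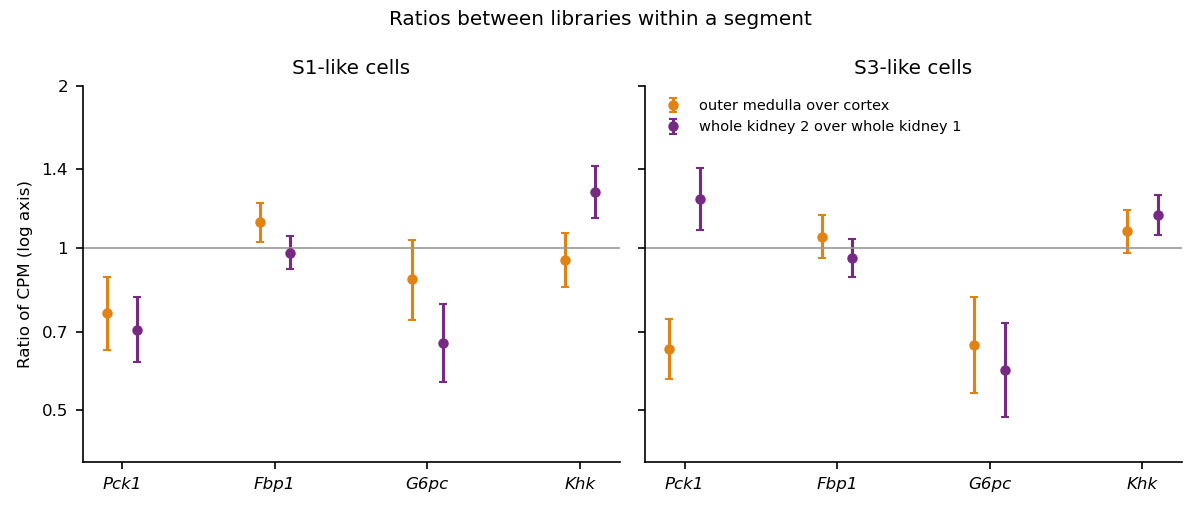
Ratio of CPM between libraries (vertical axis, logarithmic, with exact 95% intervals that cover counting error only) for each gene (horizontal axis) in S1-like (left) and S3-like (right) cells. Outer medulla over cortex is drawn beside whole kidney 2 over whole kidney 1; the ratios of Fbp1 lie between 0.96 and 1.12, and those of Pck1 and G6pc range from 0.59 to 1.23.

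Over all cells, the inner medulla held far less of each gene than cortex: 61.8 against 613 CPM of Pck1, 94.6 against 1182 of Fbp1, 50.2 against 332 of G6pc and 156 against 925 of Khk. Its 90 proximal tubule-like cells, however, were at 0.72 (0.47 to 1.04) of the cortex level for Pck1, 0.59 (0.43 to 0.80) for Fbp1, 0.92 (0.55 to 1.44) for G6pc and 1.16 (0.90 to 1.48) for Khk. The low level of the whole library thus went with its 10.1% of proximal tubule-like cells. Among these 90 cells 20 were S1-like and 54 S3-like, against 1153 and 806 in cortex. In S3-like cells alone Fbp1 was at 0.73 of cortex, with an interval (0.49 to 1.05) that holds 1. By the size rule 17.5% of 2062 genes passed between the proximal sums of inner medulla and cortex, 17% of 2056 between those of inner and outer medulla, and in S3-like cells 25.8% and 25%. Of the 4 genes 0 passed in any of these.

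The genes with the most similar pattern were read over 34 sums of a class or segment in a library, among 6167 genes, by Pearson's r of log2(CPM + 10). These sums share their libraries and free RNA, so r is a description. Pck1 was most like Khk (0.95), Calml4 (0.95), Cda (0.93), Tmem27 (0.93) and Pdzk1 (0.93). Among the 5 genes most like Fbp1 were Ass1 (0.96), Miox (0.95), Acsm2 (0.94) and Cyp2j5 (0.94). Khk was most like Ttc36 (0.97), Spink1 (0.97), Calml4 (0.97), 0610005C13Rik (0.96) and Miox (0.96). Of these genes Pdzk1, Ass1, Miox, Acsm2 and Ttc36 are among the markers by which proximal tubule-like cells were named, which favours a high r with them.

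G6pc, the least abundant of the 4 in UMIs, had lower values throughout: among its 5 most similar genes were Tmem150a (0.81), Aadac (0.80), Sugct (0.79) and Timd2 (0.79). Its r was 0.75 with Pck1, 0.76 with Khk and 0.58 with Fbp1, while Fbp1 had 0.89 with both Pck1 and Khk. Low counts lower r, and their part in the values of G6pc was not tested.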

How the data were processed

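The deposited tables hold raw UMI counts, whole numbers with a row per symbol and a column per barcode, and were used as deposited. The submitters' processing notes name Seurat 2.3.1 and the build mm9, with no role; the aligner is not given in the sources used here. Both the members and gene lists were chosen with earlier results of these data known. Cells were barcodes with at least 200 genes. Scrublet marked 22 of 12121 cells (0.182%), too few to count as having worked; those were removed, and doublets largely remain. Cells were clustered (scanpy 1.11.5, leidenalg 0.10.2, resolution 1.0) on 2000 variable genes and 30 components, without the 4 genes and the genes of 6 related lists, and named from fixed marker lists; a (sub)cluster with under 3 markers detected in 10% of its cells, or led by another class's markers, stayed unnamed. UMIs were summed per library and class or segment (at least 30 cells and 20000 UMIs) and tested with edgeR 4.0.16 (TMM factors, filterByExpr, quasi-likelihood, library as block, Benjamini-Hochberg). On simulated counts with 200 changed genes, the proximal contrast recovered 62% of log2 changes of 1 and 77% of those of 2 among 4972 genes. The segment contrast recovered 75% and 88% among 6592 genes. These counts were drawn from a single pooled profile with a fixed dispersion, without library effects or free RNA. Recovery in the data themselves may therefore differ. Intervals are exact at 95% and cover counting error only. Those of observed over expected UMIs take the expected number as fixed, leave out its own counting error and are therefore too narrow. The floor of a count of 0 is 3 counts. Log2 ratios between regions used a pseudocount of 10 CPM. Genes named are the 4 members, up to 4 per list and contrast with the smallest adjusted p and the 5 most similar genes per member. Some genes of the lists and some similar genes are counted but not reported here by name.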

Additional observations from a re-analysis of the deposited data

Results flagged for a closer look

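Signals of the 4 genes were also present in barcodes that no comparison used. The cluster of 472 cells led by the MHC class II genes H2-Aa, Cd74 and H2-Ab1 could not be named, and held 456 CPM of Pck1, 1469 of Fbp1, 403 of G6pc and 883 of Khk over all libraries, against 8.88 CPM for 3 counts. Barcodes with at least 100 but under 200 genes, below the limit for a cell, held 425 CPM of Pck1, 1222 of Fbp1, 198 of G6pc and 718 of Khk, against 1.27 CPM for 3 counts. Of the marker lists, macrophage scored highest in the MHC class II cluster and proximal tubule second. Proximal tubule markers made up 3.89% to 4.96% of its UMIs in the 4 libraries with at least 30 such cells. In the other tubule-like cells of these libraries they made up 1.07% to 1.48%. No library served as a control for either set, and what these barcodes hold was not tested.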

How the results depend on the processing

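The direction of all 4 genes between proximal and other tubule-like cells, and of Fbp1, G6pc and Khk between the segments, kept its call under every alternative run: DESeq2, RLE factors, no TMM factors, no filter, no library block, each library left out, cells with at least 500 genes, the 5% highest doublet scores removed, free RNA subtracted and each cell's own marker score. Between proximal and other tubule-like cells, subtracting free RNA takes proximal genes from the other cells by construction, so it is no check there. The option without TMM factors, the one without the sub-cluster of 78 cells and the one without a single barcode were chosen after seeing the data. The estimate for Pck1 between the segments lost its call with DESeq2 (0.19), no library block (0.20), no TMM factors (0.071), cells with at least 500 genes (0.11), doublet scores (0.19), free RNA subtracted (0.20) and the own marker score (0.18), and ranged from 0.095 to 0.38 with each library left out; the cause was not tested. The number of genes called was 2526 between proximal and other tubule-like cells, against 4336 with no filter, where 15669 genes were tested instead of 5197. Between the segments it was 2530, against 1377 with DESeq2 and 1416 with cells of at least 500 genes. In outer medulla over cortex, on the log2 scale, Fbp1 in S1-like cells turned to -0.0033 with cells of at least 500 genes, and G6pc in S3-like cells to 0.003 with the own marker score. The ratio of observed to expected UMIs moved to 1.12 for Fbp1 with the own marker score and to 1.33 for Khk without the highest doublet scores. Thinned to 500 UMIs, which raises every share by construction, the shares in S1-like and S3-like cells were 21.2% and 22.2% for Pck1, 57.7% and 45.1% for Fbp1, 17.4% and 11.1% for G6pc and 36.7% and 42.9% for Khk, and in principal cell-like cells 5.05% for Fbp1, 1.60% for G6pc and 3.46% for Khk. By the own marker score the shares of G6pc were 11.7% and 6.05%, and those in principal cell-like cells 3.18% for Pck1, 9.54% for Fbp1, 2.16% for G6pc and 6.62% for Khk. All shares in principal cell-like cells are pooled over the libraries, with inner medulla giving the most cells. No list gene that was called turned its direction; 73 calls were lost and 26 gained over 1144 values of list genes under alternatives. The fits use the library as a block, so both contrasts are paired within each library. Libraries of different regions could not be paired, because the labels number the whole kidney libraries only and no replicate number is shared between groups. Depth limits the classes outside the proximal tubule most, where UMIs of each gene were few.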
